A study of Mus musculus with 8 samples.

Results

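The comparison set CpG-STAT3ASO given alone against PBS, and took 4 of the 8 sections of the series: PBS replicates 1 and 2, and CpG-STAT3ASO replicates 1 and 2, chosen by their titles. All 8 sections were cut from mouse brain that carried GL261, a transplantable mouse glioma cell line. Mice had been given 4 intracranial treatments and were killed on day 21. The groups were PBS, the vehicle; CpG-STAT3ASO, which by its name joins a CpG oligonucleotide to an antisense oligonucleotide against Stat3; anti-PD1; and both agents together. The last 2 groups entered here only through the shared estimate of the spread between sections. Mouse strain, sex and age, the number of animals, the level of each section in the brain and the size of a pixel are unknown here. The labels do not state that sections came from separate animals, so p-values measure the spread between these sections, which may be technical.

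CpG DNA is read by TLR9, an endosomal receptor of dendritic cells, B cells and some macrophages that signals to NF-kB and interferon regulatory factors and drives cytokines such as IL-12 and chemokines such as CCL5. STAT3 is a transcription factor downstream of the IL-6 and IL-10 families of cytokines, active in many gliomas and in the macrophages that infiltrate them. An antisense oligonucleotide pairs with its target RNA, and many such molecules lead to its cleavage. Gliomas hold many macrophages, recruited from blood or derived from resident microglia, and few T cells.

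Single RNA molecules of a panel of 100 genes were counted by multiplexed single-molecule in situ hybridisation, and each was detected in all 4 sections. The tissue was divided into square bins of 360 pixels, and a bin with 20 or more molecules was taken as tissue. Bins were then split by the summed molecules of Mki67 and Birc5, both of dividing cells: low (under 10), intermediate (10 to 99) and dense (100 or more). Values are given as molecules in every 1e6 of the same bins (CPM), or as molecules per bin. None of the neuron, oligodendrocyte, astrocyte or endothelial genes listed for the comparison was on the panel, so the brain itself was not identified by markers. Ly6a was the only panel member of the glioma list. The map of bin classes shows what the classes looked like in space.

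**Figure D1:**
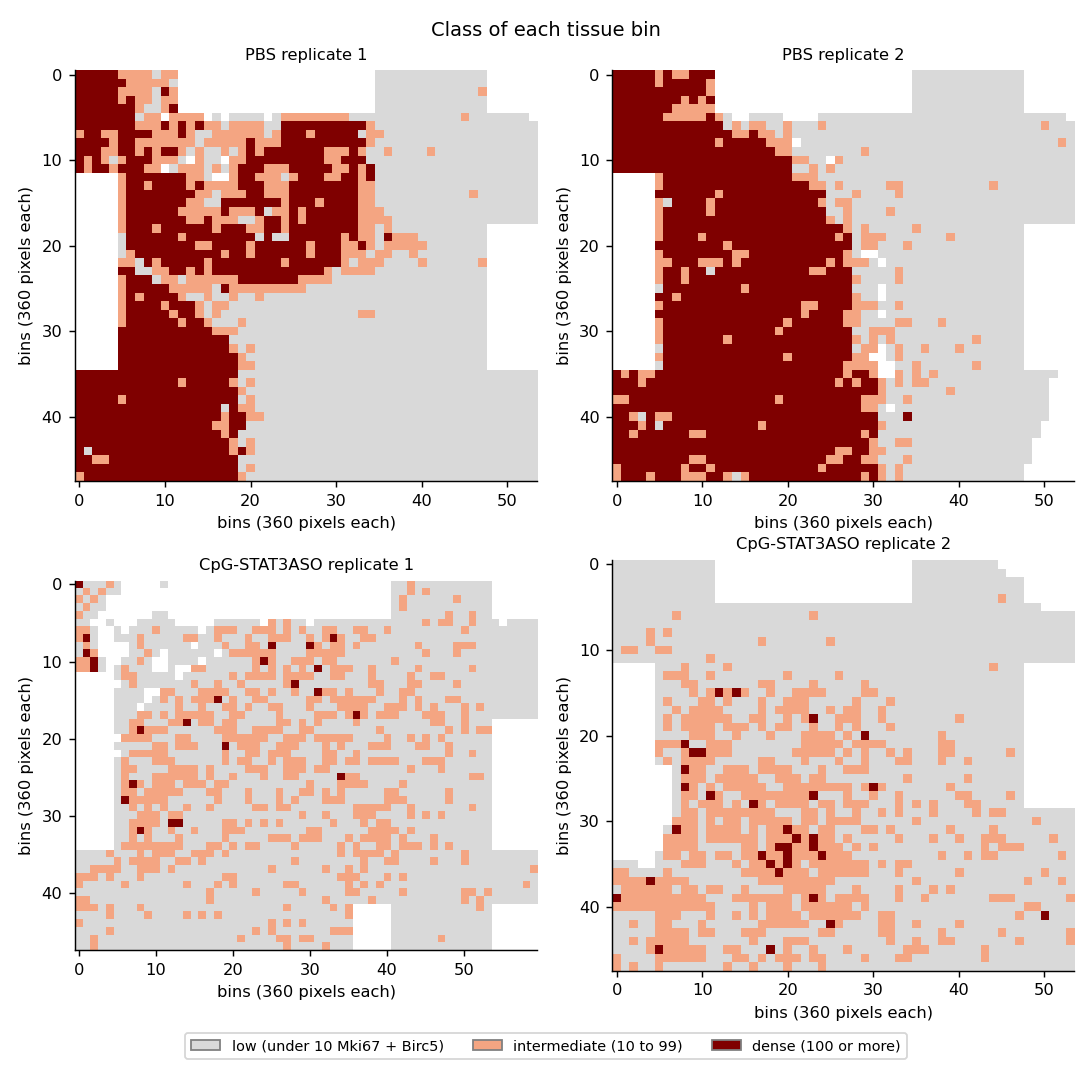
Maps of the 4 sections, 1 square per bin of 360 pixels, coloured by class: grey, low; light, intermediate; dark, dense (white, under 20 molecules or not imaged). Dense bins formed broad masses that reached the edge of the imaged field in both PBS sections (714 and 965 bins) and were scattered, most of them singly, in both CpG-STAT3ASO sections (23 and 33 bins).

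The sections held 4189535 and 6987530 gene molecules with PBS and 1664837 and 2426531 with CpG-STAT3ASO, over similar areas of 2220, 2155, 2340 and 2202 tissue bins in the same order. The third coordinate took 62 and 89 distinct values with PBS against 49 and 52 with CpG-STAT3ASO, a difference that moved with the groups and whose part in the totals was not tested. In low bins there were 637 and 764 molecules per bin with PBS and 635 and 919 with CpG-STAT3ASO, and the groups overlapped. Codes read as false positives made up 0.152% and 0.113% of molecules with PBS and 0.306% and 0.217% with CpG-STAT3ASO, at totals of 6361, 7871, 5102 and 5281. Xcr1, Ifnb1, Il2, Ly6g, Icosl and Tbx21 exceeded the 90th percentile of those codes, called the false-positive level here, in none of the 4 sections.

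Stat3, the antisense target, was lower per bin in the CpG-STAT3ASO sections. It was detected at 106 and 199 molecules per tissue bin with PBS and 25 and 43.6 with CpG-STAT3ASO, 4.46-fold lower (log2 difference -2.14, SE 0.496, adjusted p = 0.0351, limma), where the median over all genes on that scale was -0.83. This call held in 11 of 18 alternatives, with log2 differences from -2.59 to -1.69. As a share of whole sections Stat3 was at 56439 and 61479 CPM against 35091 and 39603 CPM and did not pass (adjusted p = 0.444, limma). With the classes weighted as in PBS, its share was 57130 and 60747 CPM against 31850 and 32642 CPM. That did not pass either (adjusted p = 0.23, limma). Per bin, Stat3 also fell in dense bins, where 261 and 392 molecules per bin with PBS compared with 45.1 and 77.9 with CpG-STAT3ASO (5.30-fold lower, adjusted p = 0.0111, limma). In low bins the values were 27.6 and 37.0 against 22.6 and 37.5, and in intermediate bins 53.0 and 72.2 against 30.7 and 58.0. The groups overlapped in both, and neither difference passed the test (adjusted p = 0.942 and 0.487, limma). As a share of molecules, Stat3 stood at 59803 and 63546 CPM in dense bins of PBS and 30992 and 30743 CPM in those of CpG-STAT3ASO, without overlap, and did not pass (log2 difference -1.0, SE 0.484, adjusted p = 0.163, limma). Probe positions on the RNA were not used here. In such sections fewer cells of a type and less RNA per cell cannot be told apart.

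The tissue itself differed most. Dense bins covered 32.2% and 44.8% of tissue bins with PBS and 0.983% and 1.5% with CpG-STAT3ASO. Intermediate bins covered 15.1% and 10.2% against 26.6% and 27.0%, and low bins 52.8% and 45.0% against 72.4% and 71.5%. No class overlapped between groups. For 2 sections against 2 the smallest p of the exact two-sided permutation test is 0.333, which all 3 shares reached. The dense bins held 74.4% and 85.1% of all molecules in tissue with PBS and 2.01% and 3.45% with CpG-STAT3ASO.

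Dense bins also differed in their setting. With PBS the largest connected group held 366 of 714 dense bins in replicate 1 and 964 of 965 in replicate 2. With CpG-STAT3ASO the largest held 3 of 23 and 9 of 33, and 18 groups in each section were a single bin. Among the 8 bins around a dense bin, a mean of 6.31 and 7.04 were dense with PBS and 0.261 and 0.788 with CpG-STAT3ASO, whereas 0.210 and 0.0881 against 3.17 and 2.03 were low. A dense bin of CpG-STAT3ASO thus had more low neighbours than one of PBS. The median dense bin held 321 and 379 molecules of Mki67 plus Birc5 with PBS and 121 and 130 with CpG-STAT3ASO. The mean over dense bins was 4366 and 6161 molecules of all genes against 1455 and 2535.

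Over whole sections, Adgre1, Cd68, Csf1r, Ccl5, Ccl22 and Tlr9 were among the genes that made up a larger share of the molecules after CpG-STAT3ASO, and Mki67, Birc5, Gpnmb and Cxcl10 made up a smaller one. Of 100 genes tested, 25% passed an adjusted p of 0.05 (limma, Benjamini-Hochberg), 21 higher and 4 lower, and the median log2 difference over all genes was 0.63. With scaling by the median of ratios in place of the total, that median moved to -0.03 and 13 genes passed, 5 higher and 8 lower. Leaving out PBS replicate 2 gave 5 genes, CpG-STAT3ASO replicate 1 gave 6 and CpG-STAT3ASO replicate 2 gave 10.

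Adgre1, which encodes the macrophage surface protein F4/80, had the largest rise on the fitted log2 scale, though Il12b had the larger ratio of means (10.5-fold against 9.99-fold): 1086 and 629 CPM with PBS against 11250 and 5876 CPM with CpG-STAT3ASO (log2 difference 3.30, SE 0.509, adjusted p = 0.000509, limma). Ccl5, a chemokine that draws T cells and monocytes, stood at 2233 and 3423 CPM against 23145 and 20082 CPM, a 7.64-fold rise (adjusted p = 0.00323, limma). Both groups were well apart in these 2 genes, and both calls held in all 16 alternatives tried, each left-out section included. Csf1r, the receptor that keeps macrophages and microglia alive, rose 4.32-fold, and Cd68, a lysosomal protein of phagocytes, 4.15-fold.

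Tlr9, the receptor of CpG DNA, rose from 681 and 391 CPM with PBS to 3107 and 2122 CPM with CpG-STAT3ASO (log2 difference 2.31, SE 0.563, adjusted p = 0.0102, limma). Il12a and Il12b, the p35 and p40 subunits of IL-12, rose too. Il12b was at 33.9 and 21.8 CPM with PBS and 144 and 441 CPM with CpG-STAT3ASO. It exceeded the false-positive level in only 2 of the 4 sections. Il12a was at 407 and 138 CPM against 1522 and 1303 CPM. With PBS it was at 1893 and 836 CPM in low bins and 46.5 and 54.0 CPM in dense bins. In low bins with CpG-STAT3ASO it was at 1921 and 1906 CPM and did not pass (adjusted p = 0.966, limma). With the classes weighted as in PBS it did not pass either (adjusted p = 0.376, limma). In the list of CpG sensing and NF-kB cytokines, Tlr9, Il12a and Il12b were the members that rose of 8 measured. The other 5 did not pass, and the list's median log2 difference was 1.48. Tnf was among those that missed, at 305 and 271 CPM against 569 and 700 CPM.

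Of 8 chemokines and chemokine receptors measured, 4 rose, 1 fell and 3 did not pass (median 1.82). Beside Ccl5, these were Ccl22, a chemokine of mature dendritic cells (8.44-fold), Ccr2, the receptor of inflammatory monocytes (5.62-fold), and Ccl3 (4.24-fold). Cxcl10, the interferon-induced ligand of CXCR3, went the other way, from 45200 and 101404 CPM with PBS to 5643 and 15511 CPM with CpG-STAT3ASO (6.93-fold lower, adjusted p = 0.0185, limma). With PBS, Cxcl10 was at 7015 and 23379 CPM in low bins and 54111 and 110245 CPM in dense bins. By share it did not pass in low, intermediate or dense bins (adjusted p = 0.95, 0.18 and 0.223, limma). With the classes weighted as in PBS it did not pass either (adjusted p = 0.207, limma). Cxcl9, which also binds CXCR3, was at 1056 and 2733 CPM against 1779 and 1656 CPM over whole sections and overlapped between groups.

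Cxcl10 and Cxcl9 lie close together, and the 250 bases before each start are shown. The pair was chosen because Cxcl10 was called over whole sections and Cxcl9 was not, though Cxcl10 was called in no class of bins. No test compared the 2 genes, and the log2 difference of Cxcl9, 0.015, had an SE of 1.09. Both are from RefSeq (GRCm38.p6, chromosome 5, minus strand), at chr5:92348890-92349139 for Cxcl10 and chr5:92328080-92328329 for Cxcl9, written in the direction of transcription, with matches to GGGANNNNCC (a kB-like motif) or GAAANNGAAA (an interferon-response-like motif) on either strand in capitals.
Cxcl10: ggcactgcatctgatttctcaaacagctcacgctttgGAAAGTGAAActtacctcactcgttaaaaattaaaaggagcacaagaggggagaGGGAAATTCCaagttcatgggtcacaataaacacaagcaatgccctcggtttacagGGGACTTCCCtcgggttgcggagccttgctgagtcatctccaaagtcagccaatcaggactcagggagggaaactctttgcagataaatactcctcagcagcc
Cxcl9: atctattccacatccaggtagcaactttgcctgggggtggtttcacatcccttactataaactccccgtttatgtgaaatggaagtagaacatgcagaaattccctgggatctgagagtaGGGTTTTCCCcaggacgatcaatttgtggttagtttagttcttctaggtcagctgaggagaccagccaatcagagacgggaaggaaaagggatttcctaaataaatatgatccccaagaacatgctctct
Cxcl10 held 1 interferon-response-like match, beginning 213 bases before the start, and 2 kB-like matches, beginning 159 and 103 bases before it, the last of which matched on both strands. Cxcl9 held 1 kB-like match, at 130 bases. Of 32851 promoters in the table, 17.6% held the kB-like and 2.98% the interferon-response-like motif within the same window. The matches are a description of the letters.

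Gpnmb, a glycoprotein of lipid-laden macrophages and of some glioma cells, fell from 128971 and 53661 CPM with PBS to 12723 and 5534 CPM with CpG-STAT3ASO (log2 difference -3.31, SE 0.627, adjusted p = 0.00192, limma). Mki67 fell from 49378 and 42288 CPM to 12206 and 9489 CPM, and Birc5, which encodes survivin, from 15662 and 13444 CPM to 2556 and 1751 CPM. Those 2 were members of the proliferation list, in which Rrm2, a subunit of ribonucleotide reductase, did not pass, at 7034 and 5544 CPM against 4485 and 4235 CPM.

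The other lists are given by their counts over whole sections, beside 21 of all 100 genes higher and 4 lower, with no test between lists. Of 6 macrophage and monocyte genes 3 rose (Adgre1, Ccr2, Cd68; median 1.45), and of 2 microglial genes 1 did (Csf1r), while Tmem119, which marks microglia, was at 4334 and 11896 CPM against 12571 and 7779 CPM. Of 9 dendritic cell genes 4 rose (Ccl22, Cd80, Cd86, Flt3; median 1.59). Irf8, Itgax and Batf3 of that list did not pass (log2 differences -0.53, -0.63 and 0.50, adjusted p = 0.486, 0.364 and 0.513, limma). Flt3 with PBS was at 1436 and 672 CPM in low and 30.5 and 26.2 CPM in dense bins. In low bins Flt3 did not pass (log2 difference 0.59, adjusted p = 0.966, limma). Of 8 genes of antigen presentation and costimulation 2 rose (Cd80, Cd86; median 1.04). Cd80 and Cd86 encode the ligands of CD28. Of 7 T cell genes 2 rose (Cd4 and S1pr1, median 0.90). Of 3 pan-leukocyte genes 2 rose (Ptprc, which encodes CD45, and Csf2rb, median 1.39). Of 10 checkpoint and exhaustion genes 3 rose (Havcr2, Sirpa and Tox, median 0.66). With PBS, Tox was at 555.5 and 562.5 CPM in low and 29.2 and 2.69 CPM in dense bins. Sirpa was at 197458 and 195902 CPM against 7453 and 2756 CPM. In low bins Tox and Sirpa did not pass (log2 differences 0.11 and -0.13, adjusted p = 0.966 for both, limma). Tox exceeded the false-positive level in 3 of the 4 sections. None of 5 regulatory T cell genes (median 0.60) and none of 10 cytotoxic and NK cell genes (median 0.13) passed in either direction. In the STAT3 list of 6 genes 1 fell (Birc5; median 0.05), in the interferon list of 7 genes 1 fell (Cxcl10; median 0.02), and in the list of suppressive myeloid genes 1 of 9 fell (Gpnmb; median 0.22). Of 3 scavenger and lipid genes Fabp5 rose and Gpnmb fell. Ly6g for neutrophils and Ly6a for glioma each missed the threshold. The median over all 100 genes was 0.63 on the same scale.

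The other T cell genes named here did not pass. Cd8a was at 511 and 222 CPM with PBS and 690 and 1093 CPM with CpG-STAT3ASO, which did not overlap and did not pass (adjusted p = 0.185, limma). Cd3d was at 49.7 and 66.6 CPM against 56.5 and 159 CPM, and Pdcd1, which encodes PD-1, at 430 and 353 CPM against 315 and 622 CPM. Both overlapped, as did Cd274, which encodes PD-L1, at 11600 and 13580 CPM against 12119 and 17289 CPM. Cd4 rose from 8131 and 1845 CPM to 18106 and 18534 CPM, yet in low bins it stood at 27.3 and 9.64 molecules per bin with PBS and 13.1 and 18.6 with CpG-STAT3ASO, and low bins held 93.8% and 72.5% of its molecules with PBS and 73.9% and 65.1% with CpG-STAT3ASO.

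Counted per tissue bin rather than as a share, most genes were lower with CpG-STAT3ASO, whose sections held fewer molecules. Of 100 genes, 12% passed, 1 higher and 11 lower, and the median log2 difference was -0.83. Adgre1 was the only gene higher, at 2.05 and 2.04 molecules per bin with PBS and 8 and 6.48 with CpG-STAT3ASO (adjusted p = 0.0351, limma). Gpnmb fell from 243 and 174 molecules per bin to 9.05 and 6.10, 27.5-fold, and its call held in all 18 alternatives. The others that fell, besides Stat3, Mki67 and Birc5, were Arg1, Ly6a, Tert, Rrm2, Nfkbia, Dnmt1 and Stat6, by 2.52-fold (Stat6) to 8.41-fold (Ly6a). In that order their calls held in 10, 7, 11, 9, 12, 11 and 11 of 18 alternatives, and that of Adgre1 in 10. Arg1, the arginase of suppressive myeloid cells, was at 2.30 and 5.02 molecules per bin against 0.527 and 0.354. Of the 25 genes called by share, 4 were called in the same direction per bin (Adgre1, Birc5, Gpnmb, Mki67), which is 33.3% of the genes called per bin. Leaving out PBS replicate 2 gave 2 genes and PBS replicate 1 gave 5, with 1 without either CpG-STAT3ASO section, 3 without either anti-PD1 section and 22 without either section of both agents.

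**Figure D2:**
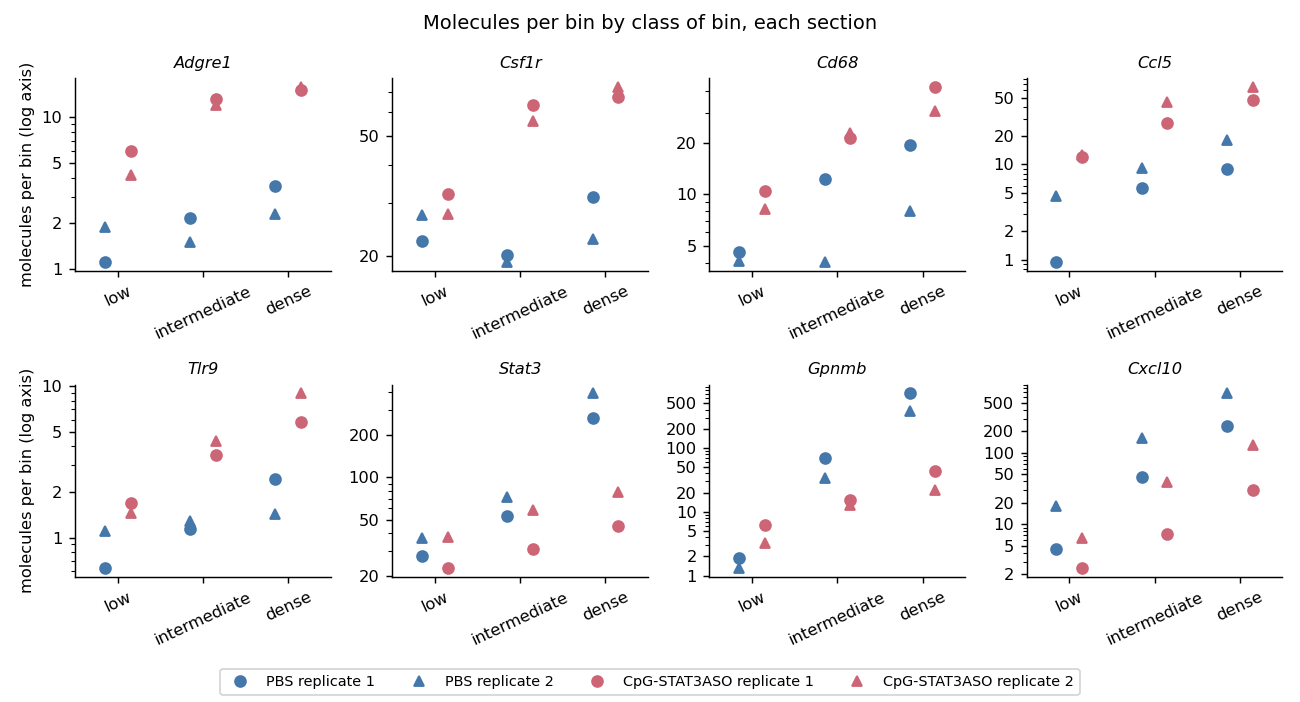
Molecules per bin of 8 genes in low, intermediate and dense bins, on log axes, 1 symbol per section (circles, replicate 1; triangles, replicate 2; blue, PBS; red, CpG-STAT3ASO). Adgre1 was higher with CpG-STAT3ASO in every class, whereas Gpnmb was lower in intermediate and dense bins and higher in low bins.

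In low bins, those with under 10 Mki67 plus Birc5 molecules, 0% of the 100 genes passed as a share and 0% per bin (limma). At an unadjusted p under 0.05 there were 8 and 11 genes, and all but Lag3 were higher with CpG-STAT3ASO. Msr1, a scavenger receptor of macrophages, was at 0.0973 and 0.0845 molecules per bin with PBS and 0.709 and 0.407 with CpG-STAT3ASO (log2 difference 2.55, SE 0.567, adjusted p = 0.133, limma). Tgfbi, a matrix protein made by recruited macrophages, was at 1.85 and 2.16 against 9.23 and 8.37 molecules per bin. Adgre1 was at 1.11 and 1.89 against 5.99 and 4.16, Cd68 at 4.65 and 4.09 against 10.5 and 8.2, and Ccl5 at 0.940 and 4.65 against 12 and 12.6. None of these 5 overlapped between groups, which was so for 41 of all 100 genes per low bin. The 5 were taken from those with an unadjusted p under 0.05. Low bins were the one class in which Gpnmb had the opposite sign, with 1.88 and 1.30 molecules per bin with PBS and 6.18 and 3.22 with CpG-STAT3ASO.

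In the same low bins Tmem119 was at 5.50 and 7.73 molecules per bin with PBS and 7.16 and 6.37 with CpG-STAT3ASO, and Csf1r at 22.5 and 27.3 against 32.0 and 27.5. By list, the median log2 difference in share was 1.74 for the 6 macrophage and monocyte genes, 1.38 for the 8 chemokine genes and 0.03 for the 2 microglial genes, beside 0.26 over all genes. The summed share of the macrophage list in low bins was 12966 and 11905 CPM with PBS and 45122 and 24366 CPM with CpG-STAT3ASO. When low bins were kept only at 4 or more bins from the nearest intermediate or dense bin (644, 403, 92 and 258 bins), the groups overlapped in both genes that follow: Adgre1 was at 0.919 and 1.60 molecules per bin with PBS and 1.17 and 1.02 with CpG-STAT3ASO, and Ccl5 at 0.581 and 3.08 against 0.598 and 0.330. Gpnmb overlapped there too, at 0.286 and 0.846 against 0.511 and 0.601 molecules per bin (log2 difference 0.17). The log2 differences per bin of Tgfbi and Cd68 were -0.07 and -0.50 there.

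Values were also taken by distance from the nearest dense bin. Ccl5 was at 4.51 and 8.38 molecules per bin with PBS and 34.3 and 42.8 with CpG-STAT3ASO within 1 to 3 bins, at 1.05 and 6.56 against 18.8 and 17.3 at 4 to 9 bins, and at 0.218 and 3.05 against 3.36 and 1.32 at 10 or more bins. The groups were apart in the nearer zones and overlapped in the farthest. Adgre1 was at 2.02 and 1.37 against 15.3 and 11.4 molecules per bin within 1 to 3 bins, and at 0.848 and 1.75 against 2.71 and 1.17 at 10 or more. Gpnmb had the reverse order near dense bins, at 47.4 and 24.6 with PBS against 22.3 and 13.4, and the same order as Adgre1 at 4 to 9 bins, at 0.835 and 1.59 against 8.44 and 3.17. The zones were not tested, and near zones of CpG-STAT3ASO surrounded scattered bins where those of PBS surrounded masses.

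**Figure D3:**
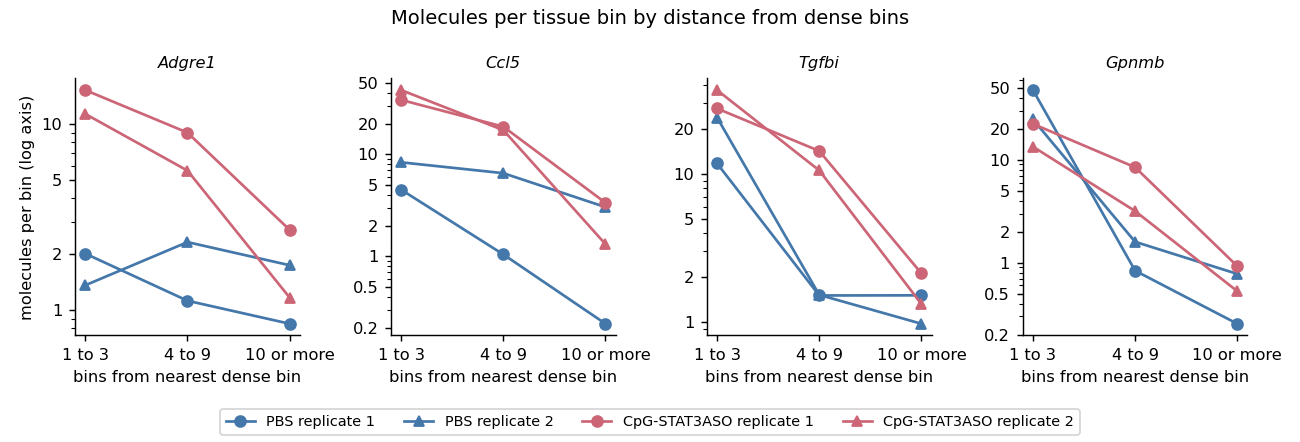
Molecules per tissue bin of 4 genes by distance from the nearest dense bin, in bins of 360 pixels, on log axes, 1 line per section. Adgre1, Ccl5 and Tgfbi were higher in both CpG-STAT3ASO sections at 1 to 3 and 4 to 9 bins, with Ccl5 at 34.3 and 42.8 against 4.51 and 8.38 in the nearest zone.

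Intermediate bins differed in 1 gene. Adgre1 rose from 2226 and 1101 CPM to 14767 and 8021 CPM (log2 difference 2.80, SE 0.514, adjusted p = 0.0315, limma), and it was also the gene called per bin, at 2.17 and 1.51 against 13.2 and 12.1 molecules (adjusted p = 0.037, limma). That is 1% of genes on each scale, against 23 and 17 at an unadjusted p under 0.05. Csf1r was at 20.1 and 19.1 against 63.3 and 55.8 molecules per bin and Gpnmb at 71.0 and 33.9 against 15.5 and 12.9, without overlap, and both missed the threshold (adjusted p = 0.0913, limma). The Adgre1 call by share was lost without PBS replicate 2 and without CpG-STAT3ASO replicate 1 (adjusted p = 0.109 and 0.188, limma).

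In dense bins, Adgre1, Csf1r, Ccl5, Tlr9, Cd4 and Cd80 were among the genes with a larger share of the molecules after CpG-STAT3ASO, and Gpnmb and Ly6a had a smaller one. Of 100 genes 25% passed, 23 higher and 2 lower, with a median log2 difference of 0.74 over all genes (limma). Scaled by the median of ratios, 8 passed, 3 higher (Adgre1, Sirpa, Tlr9) and 5 lower (Gpnmb, Ly6a, Tert, Birc5, Stat3), and the median was -0.34. Only 23 and 33 bins stood behind the CpG-STAT3ASO values, against 714 and 965. Without PBS replicate 2 no gene passed, and without PBS replicate 1 there were 14.

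Of the macrophage genes, Adgre1 rose from 810 and 375 CPM to 10400 and 6228 CPM (14.0-fold, adjusted p = 0.0108, limma), Csf1r from 7212 and 3698 CPM to 46384 and 28604 CPM, and Cd68 from 4427 and 1302 CPM to 28990 and 12073 CPM. Of 6 macrophage and monocyte genes 3 rose (median 2.54), beside 23 of all 100 genes (median 0.74), and Tgfbi, Msr1 and Cd14 did not pass. Fabp5, a fatty acid carrier, rose 10.5-fold, to 4393 and 2175 CPM, while Tmem119 was at 2913 and 12334 CPM against 7233 and 5678 CPM. In low bins of PBS, Csf1r was at 35263 and 35694 CPM and Fabp5 at 4432 and 2698 CPM, close to their levels in dense bins of CpG-STAT3ASO. Adgre1, at 1739 and 2474 CPM, and Cd68, at 7290 and 5352 CPM, were below their levels in those dense bins. Dense bins of CpG-STAT3ASO had more low neighbours, and the part of this in the rises was not tested.

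Of the sensing and chemokine genes, Tlr9 rose from 556 and 233 CPM to 4005 and 3526 CPM, and Tnf from 275 and 234 CPM to 927 and 1255 CPM. Ccl5 rose from 2045 and 2921 CPM to 32666 and 25604 CPM, and Ccl3 from 453 and 467 CPM to 3138 and 2857 CPM. With Ccl22 and Ccr2 these made 4 of 8 chemokine genes (median 2.33), beside 23 of all 100 genes higher (median 0.74). Cxcl10 was at 54111 and 110245 CPM against 20711 and 50968 CPM, without overlap, and did not pass (adjusted p = 0.223, limma).

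Of 7 T cell genes 4 rose (Cd28, Cd4, Il2ra and S1pr1, median 2.44), and of 5 regulatory T cell genes 3 rose (Foxp3, Ikzf2 and Il2ra, median 1.95). Il2ra is counted in both lists, and 23 of all 100 genes rose (median 0.74). Cd3d was at 51 and 53 CPM against 90 and 299 CPM and did not pass (adjusted p = 0.223, limma). With PBS, Cd4 was at 42752 and 12609 CPM in low bins and 429.5 and 484.6 CPM in dense bins. S1pr1 was at 41318 and 27292 CPM against 1477 and 499 CPM in the same bins. By share in dense bins with at most 4 dense neighbours, Cd4 and S1pr1 passed. Cd28, Il2ra, Foxp3 and Ikzf2 did not (adjusted p = 0.187, 0.251, 0.258 and 0.112, limma). Nor did they in dense bins of under 200 Mki67 plus Birc5 molecules (adjusted p = 0.217, 0.499, 0.314 and 0.115, limma). Foxp3, the transcription factor of regulatory T cells, was at 190 and 71.8 CPM with PBS and 777 and 932 CPM with CpG-STAT3ASO, from 26 and 78 molecules. Its call held in 1 of 8 fits that left out a section. Cd80 rose from 180 and 111 CPM to 1973 and 1757 CPM, and Cd86 from 548 and 371 CPM to 1315 and 2223 CPM. In low bins of PBS, Cd80 was at 439 and 376 CPM and Cd86 at 1269 and 1798 CPM. None of the 10 cytotoxic and NK cell genes passed (median 0.46). Cd8a was not detected in the 23 dense bins of CpG-STAT3ASO replicate 1, which allows up to 0.130 molecules per bin for counting error alone, and was at 6.42 per bin in the 33 of replicate 2, against 2.05 and 0.922 with PBS.

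Sirpa, which encodes a receptor of CD47 on macrophages and neurons, rose in dense bins from 7453 and 2756 CPM to 67573 and 51291 CPM, and S1pr1, a sphingosine-phosphate receptor of lymphocytes, endothelium and astrocytes, from 1477 and 499 CPM to 12164 and 10232 CPM. In low bins Sirpa was at 126 and 150 molecules per bin with PBS and 112 and 168 with CpG-STAT3ASO, and S1pr1 at 26.3 and 20.9 against 19.4 and 26.9. Low tissue held 78.4% and 85.4% of the Sirpa molecules with PBS and 72.9% and 77.0% with CpG-STAT3ASO. Since dense bins of CpG-STAT3ASO had more low neighbours, this abundance in low tissue moved with the rise of both genes, and its part in it was not tested.

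Per dense bin, 14% of genes passed, 3 higher (Adgre1, Sirpa, S1pr1) and 11 lower (limma). Adgre1 was at 3.54 and 2.31 molecules per dense bin with PBS and 15.1 and 15.8 with CpG-STAT3ASO. Gpnmb fell from 721 and 380 to 43.9 and 21.9, and Ly6a, the Sca-1 antigen of some glioma and endothelial cells, from 166 and 386 to 17.5 and 31.7. Vegfa, the vascular growth factor, fell from 102 and 80.9 to 21.7 and 25.9, Dnmt1, the maintenance DNA methyltransferase, from 123 and 116 to 25.1 and 26.9, and Tert, the telomerase subunit, from 11.9 and 11.4 to 1.87 and 1.97. Stat6 and Nfkbia, the inhibitor of NF-kB that NF-kB itself induces, fell too, by 3.16- and 2.89-fold. By share of the same bins, Vegfa, Stat6 and Nfkbia overlapped between groups and did not pass (adjusted p = 0.535, 0.676 and 0.955, limma). Per bin they did not pass in dense bins of under 200 Mki67 plus Birc5 molecules (adjusted p = 0.0779, 0.256 and 0.17, limma). Nor did they in those with at most 4 dense neighbours (adjusted p = 0.137, 0.369 and 0.224, limma). Dnmt1 and Tert did not overlap by share of all dense bins and did not pass (adjusted p = 0.286 and 0.112, limma). Per bin neither passed in dense bins of under 200 (adjusted p = 0.0779 and 0.0854, limma). With at most 4 dense neighbours Dnmt1 passed per bin and Tert did not (adjusted p = 0.0401 and 0.0815, limma). Stat3 and Vegfa fell in the STAT3 list, beside a median of -0.73 over all genes. Mki67 and Birc5, also among the 11, define the class, so nothing is read from them, and Birc5 is not counted for that list. Without PBS replicate 2 and without CpG-STAT3ASO replicate 1 the count was 2 each.

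Dense bins were then made more alike in 2 ways. With only bins of under 200 Mki67 plus Birc5 molecules (186, 144, 22 and 31 bins), 16 genes passed by share, all of them among the 25. With only bins that had at most 4 dense neighbours (117, 63, 23 and 33 bins), 14 passed, again all among the 25 (both counts by limma). Per bin the counts fell to 1 and 4. Adgre1 in bins with few dense neighbours was at 2.88 and 1.79 molecules per bin with PBS and 15.1 and 15.8 with CpG-STAT3ASO, and Ccl5 at 8.46 and 14.8 against 47.5 and 64.9. Stat3 in the same bins was at 151 and 165 against 45.1 and 77.9 molecules per bin, and Gpnmb at 375 and 116 against 43.9 and 21.9. Neither passed there per bin (log2 differences -1.41 and -2.75, adjusted p = 0.0647 for both, limma). By share Gpnmb did not pass in them (adjusted p = 0.112, limma) or in bins of under 200 (adjusted p = 0.0782, limma).

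**Figure D4:**
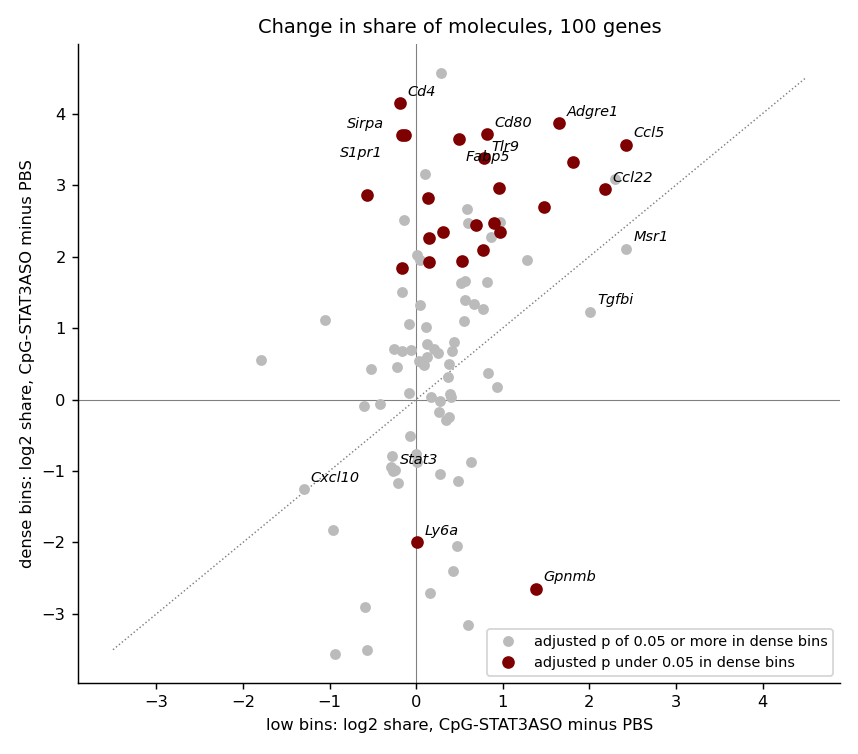
Log2 difference in share of molecules (CpG-STAT3ASO minus PBS) of 100 genes in low bins, on the horizontal axis, and in dense bins, on the vertical axis, with dark points past an adjusted p of 0.05 in dense bins and a dotted line of equal change. Gpnmb, at 1.38 and -2.64, lay among the genes higher in low and lower in dense bins.

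The change differed between dense and low bins in 4% of genes, tested on the difference within each section (limma). For Gpnmb the log2 change in dense bins minus that in low bins was -4.03 (SE 0.352, adjusted p = 0.00156, limma), and this held in all 18 alternatives. The same difference was 3.83 for Sirpa, 3.86 for S1pr1 and 2.89 for Cd80. In low bins their own log2 differences in share were -0.13, -0.17 and 0.82, and none passed (adjusted p = 0.966, 0.966 and 0.776, limma). Leaving out PBS replicate 2, CpG-STAT3ASO replicate 1 or either anti-PD1 section gave 1 gene, leaving out CpG-STAT3ASO replicate 2 gave 9 and leaving out PBS replicate 1 gave 21. In absolute place, dense bins held 95.2% and 97.7% of the Gpnmb molecules with PBS and 4.78% and 5.37% with CpG-STAT3ASO, where low bins held 49.6% and 37.8%.

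**Figure D5:**
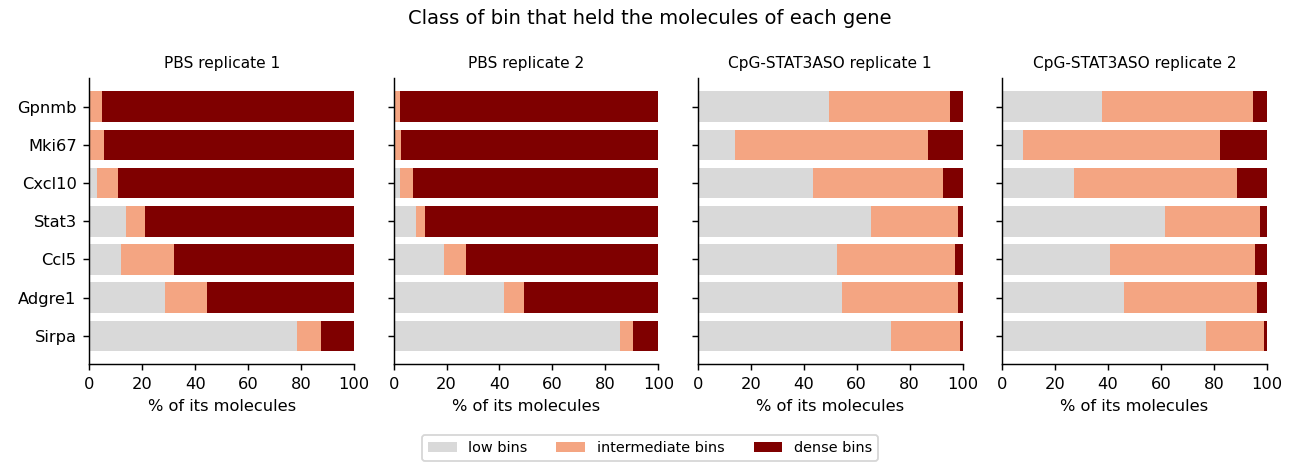
Percent of the molecules of 7 genes that lay in low (grey), intermediate (light) and dense (dark) bins of each section. Gpnmb lay almost wholly in dense bins with PBS (95.2% and 97.7%), whereas Sirpa lay mainly in low bins in all 4 sections (72.9% to 85.4%).

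To set the makeup of the sections equal, the shares in low, intermediate and dense bins of each section were averaged with the weights of the PBS sections (14.2%, 6.03% and 79.8% of molecules). On that basis 23% of genes passed, 21 higher and 2 lower (Gpnmb and Ly6a), with a median of 0.70 (limma). Of the 25 genes called over whole sections, 16 were called again in the same direction: Adgre1, Ccl22, Ccl3, Ccl5, Ccr2, Cd68, Cd80, Cd86, Csf1r, Csf2rb, Fabp5, Gpnmb, Havcr2, Il12b, Ptprc and Tlr9. Those not called again were Cd4, Cxcl10, Flt3, Il12a, S1pr1, Sirpa and Tox, beside Mki67 and Birc5, which define the classes. Genes called here and not over whole sections included Fas, Il2ra, Foxp3, Msr1, Tnf and Ly6a. The weights put most of the value on the 23 and 33 dense bins. Without PBS replicate 2 no gene passed, without PBS replicate 1 3 did and without CpG-STAT3ASO replicate 1 7 did. Leaving out CpG-STAT3ASO replicate 2 or either section of both agents gave 15.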

How the data were processed

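RNA molecules of 100 genes were counted in 8 sections. The authors' deposited files list 1 molecule a line, with its x, y and z position and target name; all counts here were tallied from those lines. Names that start with FP were read as false-positive codes and left out. Per the submitters' processing notes Seurat 4.2.0 was used, with its role not stated; decoding software and genome build: not given in the sources used here.

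Molecules were tallied per section and per bin of 360 pixels (tissue, 20 or more molecules), with classes under 10, 10 to 99 and 100 or more Mki67 plus Birc5 molecules. Shares (CPM) and molecules per bin were tested as log2 values with a pseudocount of 1 CPM, or of 1 molecule in 1000 bins, which understates changes of low genes; folds are ratios of group means, so they can differ from the log2 differences. The fit was limma 3.58.1 (R 4.3.3) with lmFit and eBayes with a trend over all 8 sections and 4 groups, so that the groups shared 1 estimate of the spread, for genes with a mean of 10 or more molecules, and p-values were Benjamini-Hochberg adjusted over all genes tested. The change in dense minus low bins was tested on each section's own difference. Dense, low and intermediate coverage was compared with exact permutation tests (scipy 1.17.1). Tallies used numpy 2.4.6 and pandas 2.3.3, and plots matplotlib 3.10.9. The fits were tested on simulated data.

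Genes named were up to 12 each way past the threshold without overlap between groups, a fixed set of 16 genes, and the 3 most abundant members of each of 23 gene lists (183 genes, 85 on the panel); others named were chosen after their values were seen. The comparison, members and lists were chosen with earlier results of these data known. Molecules of 1 cell are not independent, so limits for a count of 0 (3 molecules) cover counting error only. Alternatives changed the pseudocount, filter, scaling, bin size, class limits, tissue minimum, groups in the fit, trend and sections; 3 were chosen after seeing the data: genes above the false-positive level, 10 molecules per section in the class, and dense bins with at most 4 dense neighbours. Results of some genes are not reported here.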

Additional observations from a re-analysis of the deposited data

Results flagged for a closer look

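In 4 genes the change between PBS and CpG-STAT3ASO differed between dense and low bins, by a test of the difference within each section (limma, adjusted p under the threshold). The log2 change in dense bins minus that in low bins was -4.03 for Gpnmb, 2.89 for Cd80, 3.83 for Sirpa and 3.86 for S1pr1. Gpnmb was 2.85-fold higher in share in low bins, which did not pass (adjusted p = 0.512, limma), and 5.84-fold lower in dense bins. Its call by share in dense bins held in 11 of 22 alternatives, and in 1 of 8 fits that left out a section. Dense bins of CpG-STAT3ASO numbered 23 and 33 and had a mean of 3.17 and 2.03 low bins among their 8 neighbours, against 0.210 and 0.0881 with PBS, and the part of this in the differences was not tested.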

How the results depend on the processing

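Of 228 alternatives over 13 counts and percentages, 151 stayed within 1.5 times the count or 1 SD of the percentage. With the 2 groups alone in the fit the counts of called genes were 24 over whole sections per bin, 4 in low bins by share, 3 in intermediate bins on each scale, 13 in dense bins by share, 13 after standardising and 1 for dense minus low bins. Without the trend they were 3 over whole sections per bin, 0 in intermediate bins on each scale and 8 for dense minus low. Median-of-ratios scaling gave 13 over whole sections and 8 in dense bins by share. Bins of 180 pixels gave 6 in intermediate bins on each scale and 20 for dense minus low, and bins of 720 pixels gave 2 in intermediate bins per bin. Limits of 20 and 200 gave 23 by share and 6 per bin in intermediate bins, and limits of 5 and 50 gave 23 for dense minus low. For dense minus low, a pseudocount of 10 gave 15, a mean of 50 or more molecules 8 and genes above the false-positive level 15. Dense bins under 200 gave 16 by share and 1 per bin, and those with at most 4 dense neighbours 14 and 4. The cause of these shifts was not tested.

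Leaving out 1 section gave 5 to 33 genes over whole sections by share, 1 to 22 per bin, 0 to 1 in low bins by share, 0 to 0 per bin, 0 to 3 and 0 to 2 in intermediate bins, 0 to 26 and 2 to 17 in dense bins, 0 to 18 after standardising and 1 to 21 for dense minus low. It gave differences of 19.2 to 27.0 points in low, 11.7 to 16.6 in intermediate coverage, and -43.5 to -30.9 points for dense bins, percent of tissue bins. For low coverage, bins of 180 and 720 pixels gave 28 and 15.8 points and limits of 5 and 50 or 20 and 200 gave 15.1 and 30.2. For intermediate coverage the same 4 gave 4.91, 24.9, 22.3 and 0.696, and for dense coverage limits of 20 and 200 gave -30.9. Of 76 calls of single genes, tried in 1434 alternatives, 1070 were kept, 363 lost and 1 reversed, Mki67 per dense bin with bins under 200 (0.04).

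With the replicate number as a block the counts were 27 and 9 over whole sections, 0 and 0 in low, 1 and 0 in intermediate and 24 and 12 in dense bins, 16 after standardising and 4 for dense minus low. With the block, Adgre1 per bin did not pass in intermediate bins (adjusted p = 0.0764, limma) or over whole sections (adjusted p = 0.0526, limma). The labels do not pair the sections, and same-numbered deviations correlated at 0.309 over whole sections, 0.43 in low, 0.5 in intermediate and 0.0979 in dense bins. Bins of 720 pixels and limits of 20 and 200 were not run for dense bins, the standardised share and dense minus low, since a section had fewer than 10 dense bins.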

Other observations

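Il6 in CpG-STAT3ASO replicate 2 was concentrated in 2 adjacent low bins, with 205 of 397 molecules (51.6%), whereas the 2 fullest bins held 8.82%, 9.85% and 12% of Il6 molecules in the other 3 sections. Rrm2 in dense bins was at 8700 and 6160 CPM with PBS against 20921 and 14726 CPM with CpG-STAT3ASO, which did not pass (adjusted p = 0.141, limma), and at 38.0 and 37.9 against 30.4 and 37.3 molecules per bin (log2 difference -0.17). Cd4 was present in 70.5% and 53.9% of low bins with PBS and 51.4% and 59.1% with CpG-STAT3ASO, and Cd3d in 1.02% and 5.67% against 2.66% and 6.03%.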
